A study of Mus musculus with 6 samples.

Results

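The genes described here encode 9 transcription factors that set and hold the identity of microglia, the macrophages that live in brain and spinal cord: Spi1, Irf8, Runx1, Cebpa, Sall1, Sall3, Mef2a, Mef2c and Bhlhe41. They were chosen by name, and each was found by its Ensembl identifier, so the 9 genes are 9 of the 55401 in the count table. All 9 were among the 16248 genes with enough counts to be tested. RNA was sequenced from spinal cord microglia of untreated mice aged 7 months, collected with beads coated against CD11b, the integrin encoded by Itgam. The control group was non-transgenic (NTg, C57BL/6), and the other was a heterozygous double mutant with a knock-in of hATXN2-Q33 and hTDP-43, called ATXN2-Q33;TDP-43 or double mutant here. Each group had 9 animals and 3 libraries, and each library pooled 3 spinal cords, so the spread between libraries is the spread between pools and not between single animals. Libraries are named by the number in their titles: NTg replicates 7, 9 and 11, and double mutant replicates 8, 10 and 12. Levels are given as CPM, counts scaled to a normalised library of 1000000, or, between genes, as RPKM, the same per kilobase of exon.

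Macrophage identity is built in layers. Factors such as PU.1, the product of Spi1, open enhancers shared by all macrophages, often with a partner such as IRF8, a RUNX factor or a C/EBP factor, while factors of a single tissue, such as SALL1 in microglia, add the program of that tissue. MEF2 factors bind many microglial enhancers and respond to signals, and BHLHE41 is a repressor that binds E-boxes and is known from the circadian clock. In mice, loss of Spi1 or Irf8 disturbs the microglial population, and loss of Sall1 moves microglia away from their resting state.

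The libraries held 12553570 to 22854628 counts, and every one of the 9 factors had at least 1289 counts in each library. The 14 markers of microglia, among them P2ry12, Tmem119 and Cx3cr1, were all present, with mean levels from 109 CPM for Slc2a5 to 4311 CPM for Csf1r, so the label of the cells fits their markers. Markers of other cells were present as well and differed between libraries of 1 group. The 8 oligodendrocyte markers summed to 182 to 1646 CPM in NTg and 168 to 1121 CPM in double mutant libraries, highest in NTg replicate 9 and double mutant replicate 10. The 12 neutrophil markers summed to 742 to 1246 CPM in NTg and 664 to 2344 CPM in double mutants, of which Csf3r, which microglia also express, gave 568 to 656 CPM. Sums of the 10 monocyte markers were 153 to 168 CPM and 93.7 to 321 CPM, those of the 8 B cell markers 134 to 158 CPM and 125 to 136 CPM, and those of the 8 border macrophage markers 129 to 155 CPM and 119 to 170 CPM. No marker in these lists was at 0 in all libraries. Tardbp and Atxn2, the mouse genes of the altered proteins, changed by 0.05 (SE 0.09) and 0.09 (SE 0.08) on the log2 scale. Neither passed the test. Atxn2 was higher in every double mutant library, at 99.3 to 104 CPM against 94.0 to 95.9 CPM in NTg, as were 3.26% of all tested genes. Human sequence was not counted, so these values do not check the genotype. In pooled cells such as these, fewer cells of a type and less RNA per cell cannot be told apart.

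The stretches of DNA in front of these genes differ in base composition and in the motifs they hold. The 250 bases before the start are shown for 5 of the 7 factors whose windows were searched. For these 5 the RefSeq start is also the 5′ end of the gene in the count table. Windows of Spi1 and Sall3 were not searched. The sequences are from RefSeq on GRCm38.p6, the patch release of mm10, 5′ to 3′ on the strand of the gene. Capitals mark the matches of the motifs searched on both strands: GAGGAA, a core recognised by PU.1; the composite of an ETS and an IRF site; the repeat of the interferon response element; TGTGGT for RUNX; TTGCNNAA for C/EBP; CACGTG, the E-box; and TATAAA, the TATA box, which was added after the sequences had been seen. The windows lie at chr8:120736108-120736357 on the plus strand for Irf8, chr7:35119043-35119292 on the plus strand for Cebpa, chr8:89044163-89044412 on the minus strand for Sall1, chr7:67372859-67373108 on the minus strand for Mef2a and chr13:83503784-83504033 on the plus strand for Mef2c.
Irf8: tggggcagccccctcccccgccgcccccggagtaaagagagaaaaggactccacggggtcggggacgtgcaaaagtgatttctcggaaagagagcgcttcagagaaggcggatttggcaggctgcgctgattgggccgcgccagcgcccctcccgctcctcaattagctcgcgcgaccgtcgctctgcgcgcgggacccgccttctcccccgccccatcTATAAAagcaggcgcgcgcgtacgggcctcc
Cebpa: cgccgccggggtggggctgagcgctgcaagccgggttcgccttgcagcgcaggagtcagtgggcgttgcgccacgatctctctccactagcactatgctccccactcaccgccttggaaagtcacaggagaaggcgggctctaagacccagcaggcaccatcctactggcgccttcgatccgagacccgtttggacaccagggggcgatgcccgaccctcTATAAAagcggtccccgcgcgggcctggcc
Sall1: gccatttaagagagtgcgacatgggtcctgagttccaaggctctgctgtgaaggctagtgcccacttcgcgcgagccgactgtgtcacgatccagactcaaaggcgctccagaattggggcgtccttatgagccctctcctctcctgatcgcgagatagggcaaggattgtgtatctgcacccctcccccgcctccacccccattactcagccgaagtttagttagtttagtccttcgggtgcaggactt
Mef2a: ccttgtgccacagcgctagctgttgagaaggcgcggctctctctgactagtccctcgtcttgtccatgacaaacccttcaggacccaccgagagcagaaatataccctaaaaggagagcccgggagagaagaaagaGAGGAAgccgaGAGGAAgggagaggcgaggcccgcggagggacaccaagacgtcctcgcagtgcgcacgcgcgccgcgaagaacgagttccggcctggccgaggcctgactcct
Mef2c: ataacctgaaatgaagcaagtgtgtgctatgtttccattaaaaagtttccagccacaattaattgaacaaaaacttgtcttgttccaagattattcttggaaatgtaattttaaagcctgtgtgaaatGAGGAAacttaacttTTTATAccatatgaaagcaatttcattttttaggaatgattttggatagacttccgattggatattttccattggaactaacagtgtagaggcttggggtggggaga

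In these windows TATAAA began 31 bases before the start of Irf8 and 30 bases before that of Cebpa, and 12.4% of the 32841 mouse windows of this length held it. Mef2c held it on the other strand, 107 bases before its start. Mef2a held GAGGAA at 114 and 103 bases before its start and Mef2c once, at 122 bases, against 23.3% of all windows. None of the 7 motifs occurred in the window of Sall1. The remaining motifs had no match in these 5 windows. Among all windows 2.3% held the ETS-IRF composite, 2.98% the interferon response repeat, 14% TGTGGT, 9.57% TTGCNNAA and 6.02% CACGTG. The searched windows of Runx1 and Bhlhe41, which are not shown, held CACGTG at 71 and 153 bases before the RefSeq start, respectively. A match describes the letters only, since binding was not measured.

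None of the 9 factors differed between the genotypes beyond the spread of the libraries. By edgeR's quasi-likelihood test, with p-values adjusted over all 16248 genes, 0 of the 9 passed the threshold of 0.05, where 0% of all genes passed. At an unadjusted p under 0.05 the counts were 0 of 9 factors and 370 of all genes, 2.28%, and over all genes DESeq2 called 7, or 0.0431%, and limma voom 0. A fit with neighbouring sample numbers as a block, a pairing that the labels do not name, called 71 genes, 0.437%, and again none of the 9 factors. The fold changes were small. They ran from -0.15 for Sall3 to 0.09 for Cebpa on the log2 scale, with 7 negative and 2 positive values and a median of -0.07, while 48.0% of all tested genes had a negative value and their median was 0.01. The 95% intervals give the size of change that these libraries can still hold: the widest, that of Cebpa, ran from 0.73-fold to 1.54-fold, and those of Spi1, Mef2a and Mef2c stayed between 0.83-fold and 1.09-fold. The sign turned under at least 1 alternative for 5 factors, Irf8, Runx1, Cebpa, Sall1 and Bhlhe41, and for none of the other 4.

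**Figure D1:**
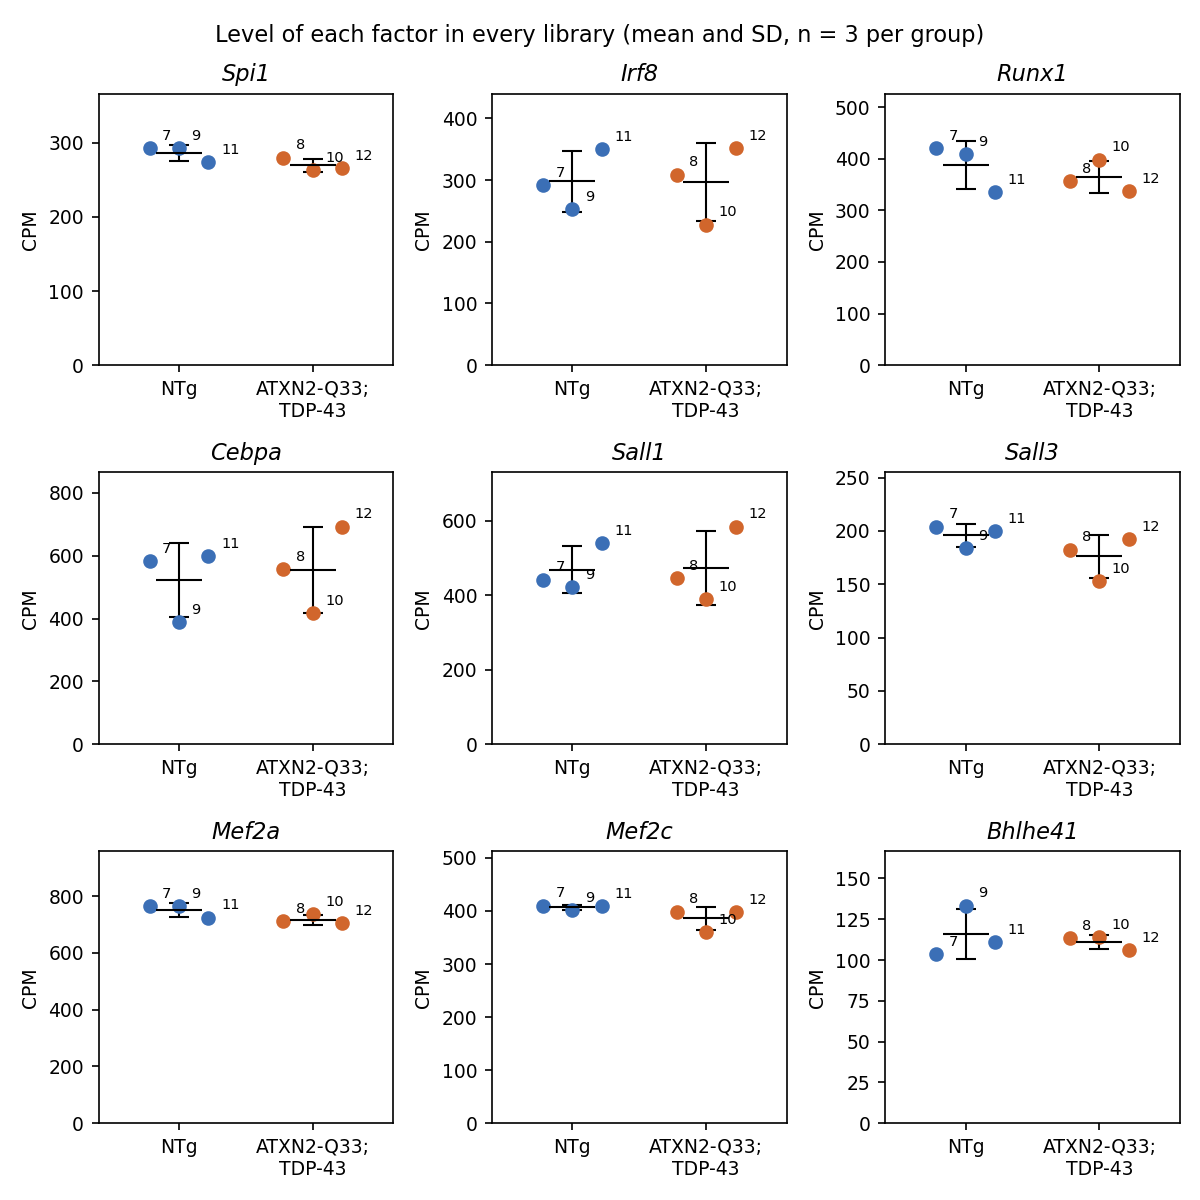
Level of each of the 9 factors in CPM (vertical axes, starting at 0) in the 3 NTg and the 3 ATXN2-Q33;TDP-43 libraries; points are libraries with their replicate numbers, the wide line is the mean and the bars are 1 SD (n = 3). The groups overlap for every factor except Mef2c, whose NTg libraries lie at 402 to 410 CPM and whose double mutant libraries lie at 360 to 399 CPM.

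The lineage factors come first. Spi1 (ENSMUSG00000002111.8, mm10 chromosome 2, 91082390 to 91115756), which encodes PU.1, the factor that every macrophage needs, stood at 293, 292 and 274 CPM in replicates 7, 9 and 11 (NTg) and at 280, 264 and 266 CPM in replicates 8, 10 and 12 (double mutant). The values of the groups overlapped within a narrow band, since NTg replicate 11 lay below double mutant replicate 8. The means were 287 ± 11.1 and 270 ± 8.89 CPM (SD, n = 3 each), which is a log2 fold change of -0.09 with an SE of 0.08 (95% interval -0.27 to 0.10; edgeR adjusted p = 0.9996; exact two-sided permutation p = 0.2, where 0.1 is the smallest that 3 against 3 libraries allow).

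Irf8 (ENSMUSG00000041515.10, chromosome 8, 120736358 to 120756694) encodes an interferon regulatory factor that pairs with PU.1 on DNA. It stood at 291, 253 and 350 CPM in replicates 7, 9 and 11 (NTg) and at 309, 228 and 352 CPM in replicates 8, 10 and 12 (double mutant). Both groups held a low, a middle and a high library, and their ranges lay over each other. The means were 298 ± 48.9 and 296 ± 63.1 CPM, a log2 fold change of -0.01 with an SE of 0.18 (95% interval -0.42 to 0.40; edgeR adjusted p = 0.9996; exact permutation p = 1).

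Runx1 (ENSMUSG00000022952.17, chromosome 16, 92601466 to 92826149), the RUNX factor of blood cell formation, stood at 421, 408 and 336 CPM in replicates 7, 9 and 11 (NTg) and at 357, 398 and 337 CPM in replicates 8, 10 and 12 (double mutant). It was lowest in NTg replicate 11 and double mutant replicate 12, the libraries in which Irf8 was highest. The means of 388 ± 46.2 and 364 ± 31.4 CPM gave a log2 fold change of -0.09 with an SE of 0.11 (95% interval -0.35 to 0.16; edgeR adjusted p = 0.9996; exact permutation p = 0.6).

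Cebpa (ENSMUSG00000034957.10, chromosome 7, 35119293 to 35121928), a gene without introns whose product C/EBPα drives myeloid differentiation, stood at 583, 388 and 598 CPM in replicates 7, 9 and 11 (NTg) and at 557, 417 and 692 CPM in replicates 8, 10 and 12 (double mutant). NTg replicate 9 and double mutant replicate 10 were low, and double mutant replicate 12 was the highest of all. The means of 523 ± 117 and 555 ± 137 CPM gave a log2 fold change of 0.09 with an SE of 0.23 (95% interval -0.45 to 0.62; edgeR adjusted p = 0.9996; exact permutation p = 0.8). The sign of this value turned when NTg replicate 9 (-0.09) or double mutant replicate 12 (-0.10) was left out.

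The spalt-like zinc finger factors set microglia apart from other macrophages. Sall1 (ENSMUSG00000031665.7, chromosome 8, 89027235 to 89044162) stood at 442, 422 and 540 CPM in replicates 7, 9 and 11 (NTg) and at 446, 390 and 584 CPM in replicates 8, 10 and 12 (double mutant). NTg replicate 11 and double mutant replicate 12 stood above the other 4 libraries, 1 in each group. The means of 468 ± 62.9 and 473 ± 99.5 CPM gave a log2 fold change of 0.02 with an SE of 0.16 (95% interval -0.35 to 0.38; edgeR adjusted p = 0.9996; exact permutation p = 1).

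Sall3 (ENSMUSG00000024565.10, chromosome 18, 80966376 to 80986771), its less studied relative, stood at 204, 184 and 200 CPM in replicates 7, 9 and 11 (NTg) and at 182, 153 and 192 CPM in replicates 8, 10 and 12 (double mutant). Double mutant replicate 10 was the lowest, and replicate 12 lay within the NTg range. The means of 196 ± 10.7 and 176 ± 20.4 CPM gave the most negative of the 9 fold changes, -0.15 (SE 0.10, interval -0.39 to 0.08; edgeR adjusted p = 0.9996; exact permutation p = 0.2). With neighbouring sample numbers as a block, the value was -0.16 (interval -0.28 to -0.03) with an edgeR adjusted p of 0.396.

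The MEF2 factors bind DNA as dimers and are also known from muscle and neurons. Mef2a (ENSMUSG00000030557.17, chromosome 7, 67231163 to 67372858) stood at 765, 766 and 724 CPM in replicates 7, 9 and 11 (NTg) and at 711, 736 and 704 CPM in replicates 8, 10 and 12 (double mutant). NTg replicate 11 lay below double mutant replicate 10, so the groups overlapped. The means of 752 ± 24.1 and 717 ± 17.1 CPM gave a log2 fold change of -0.07 with an SE of 0.09 (95% interval -0.26 to 0.12; edgeR adjusted p = 0.9996; exact permutation p = 0.2).

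Mef2c (ENSMUSG00000005583.16, chromosome 13, 83504034 to 83667080), which restrains inflammatory responses of mouse microglia, stood at 410, 402 and 409 CPM in replicates 7, 9 and 11 (NTg) and at 399, 360 and 398 CPM in replicates 8, 10 and 12 (double mutant). It was the 1 factor of the 9 whose groups did not overlap; over all tested genes 6.84% had groups without overlap, and 3.58% had them with the double mutant lower. The distance was small: double mutant replicates 8 and 12 lay within 4 CPM of NTg replicate 9, and only replicate 10 stood apart. The means of 407 ± 4.30 and 386 ± 22 CPM gave a log2 fold change of -0.08 with an SE of 0.09 (95% interval -0.27 to 0.12; edgeR adjusted p = 0.9996; exact permutation p = 0.1, the smallest possible), and -0.03 without double mutant replicate 10.

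Bhlhe41 (ENSMUSG00000030256.11, chromosome 6, 145858243 to 145865558), the repressor of the group, stood at 104, 133 and 111 CPM in replicates 7, 9 and 11 (NTg) and at 113, 114 and 106 CPM in replicates 8, 10 and 12 (double mutant). All double mutant libraries lay between the lowest and the highest NTg library, and NTg replicate 9 was the highest. The means of 116 ± 15.5 and 111 ± 4.35 CPM gave a log2 fold change of -0.06 with an SE of 0.11 (95% interval -0.30 to 0.18; edgeR adjusted p = 0.9996; exact permutation p = 0.9), which became 0.05 without NTg replicate 9.

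**Figure D2:**
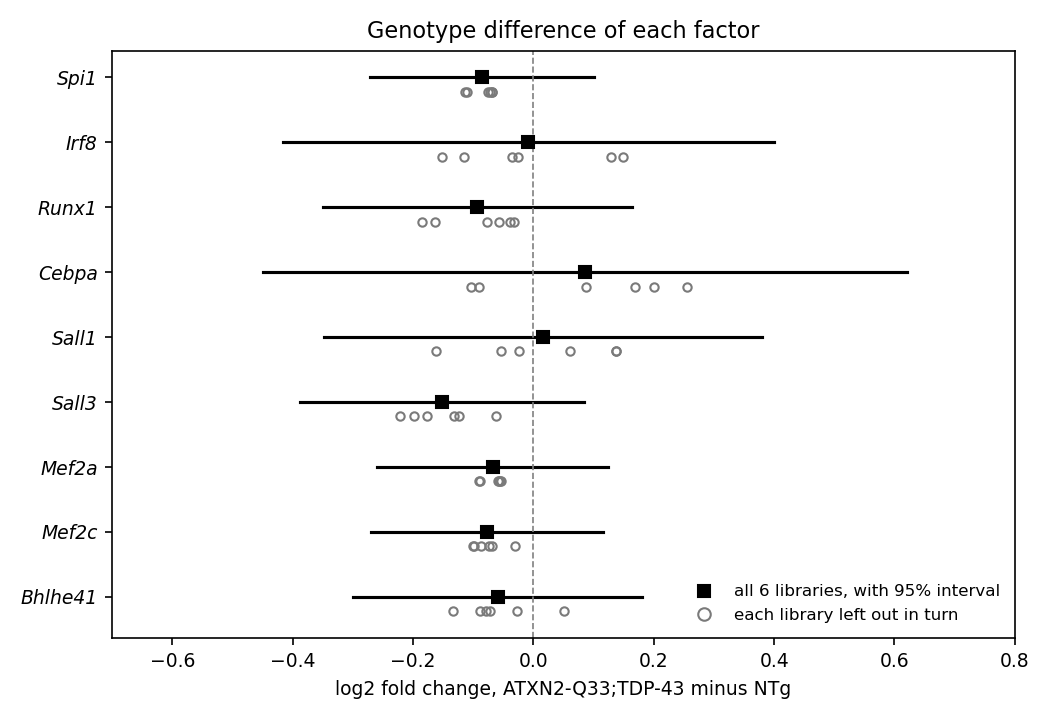
Log2 fold change of each factor, double mutant minus NTg (horizontal axis), from edgeR; squares are the values over all 6 libraries with their 95% intervals, and open circles are the values with each library left out in turn. Every interval includes 0, and the circles of Irf8, Cebpa, Sall1 and Bhlhe41 lie on both sides of it.

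The factors differed in how much they varied between libraries. Mef2a, Spi1 and Mef2c were steady, with coefficients of variation (SD over mean, 6 libraries) of 3.62%, 4.59% and 4.61%. Bhlhe41, Sall3 and Runx1 were intermediate at 9.22%, 9.75% and 10.03%, and Sall1, Irf8 and Cebpa varied most, at 15.8%, 17% and 21.4%. Among the 8303 genes with a mean of at least 10 CPM, the SD of log2 CPM of Mef2a was higher than that of 2.88% of genes, that of Spi1 of 6.64% and that of Mef2c of 7.65%. At the other end, Irf8 stood above 85.8% of these genes and Cebpa above 92.5%.

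The variable factors were low and high in the same libraries. Cebpa lay 0.44 below its mean on the log2 CPM scale in NTg replicate 9 and 0.34 below it in double mutant replicate 10, and 0.39 above it in double mutant replicate 12. Irf8 lay 0.22 and 0.36 below its mean in NTg replicate 9 and double mutant replicate 10, and Sall1 0.14 and 0.26 below. All 3 were above their means in NTg replicate 11 and double mutant replicate 12. Runx1 ran the other way, 0.12 and 0.09 above its mean in NTg replicate 9 and double mutant replicate 10 and 0.16 and 0.15 below it in NTg replicate 11 and double mutant replicate 12. These 4 factors were thus alike across genotypes in libraries with neighbouring numbers, 7 with 8, 9 with 10 and 11 with 12: for Irf8 their mean absolute log2 difference was 0.08 over 3 pairs, against 0.37 over the other 6 pairs of an NTg and a double mutant library. The same comparison gave 0.13 against 0.45 for Cebpa, 0.08 against 0.31 for Sall1 and 0.09 against 0.20 for Runx1. The values were near each other for Spi1 (0.09 against 0.10), Mef2a (0.07 against 0.08) and Sall3 (0.16 against 0.18), equal for Mef2c (0.08) and the other way for Bhlhe41 (0.14 against 0.13). The neighbouring pairs were thus the closer ones for 7 of the 9 factors, and for 67.7% of all tested genes. The labels do not say what neighbouring numbers share. Depth also differed along the numbers. NTg replicate 11 and double mutant replicate 12 held 22854628 and 19792021 counts, and the other libraries 12553570 to 14722639. A part of depth in these patterns was not tested.

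**Figure D3:**
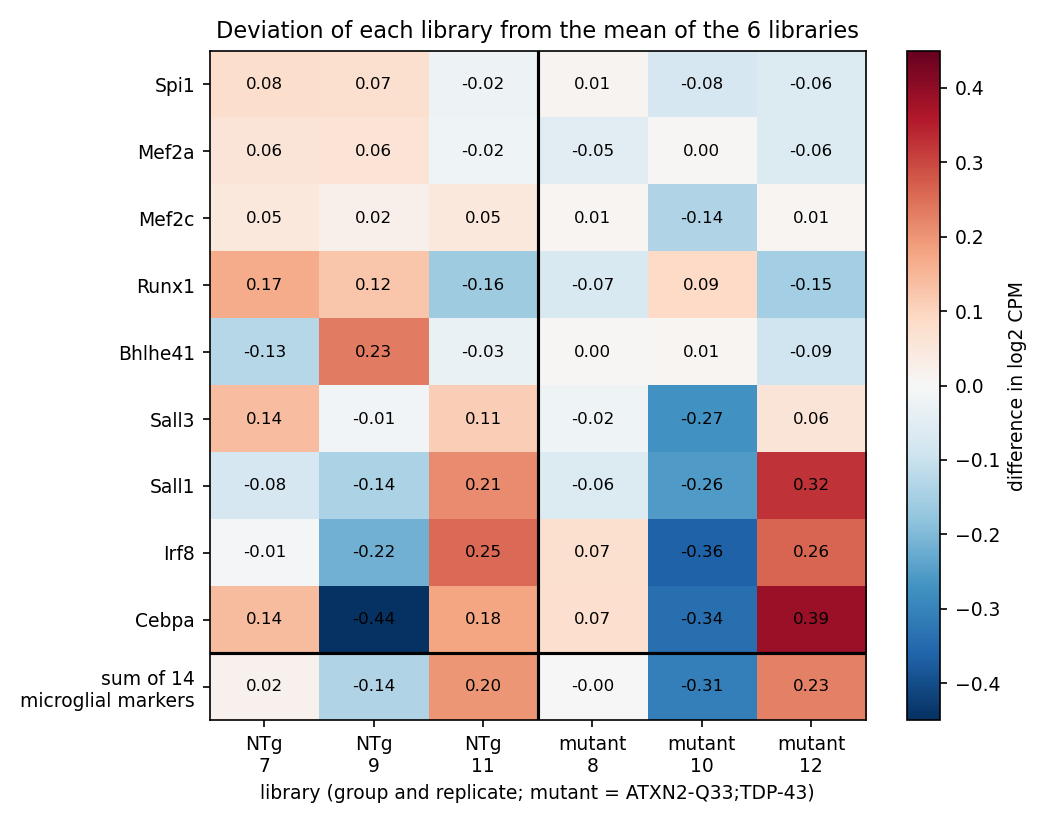
Deviation of each factor in each library (columns) from its mean over the 6 libraries, as a difference in log2 CPM (colour and printed value), with the summed level of the 14 microglial markers in the last row. Irf8, Sall1, Cebpa and the marker sum are low in NTg replicate 9 and double mutant replicate 10 and high in NTg replicate 11 and double mutant replicate 12.

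The sum of the 14 microglial markers, like the variable factors, was low in NTg replicate 9 and double mutant replicate 10 and high in NTg replicate 11 and double mutant replicate 12. It was 15321, 13751 and 17366 CPM in replicates 7, 9 and 11 (NTg) and 15107, 12225 and 17690 CPM in replicates 8, 10 and 12 (double mutant), with overlapping groups (exact two-sided permutation p = 0.9). Of the 14 markers 12 had a negative log2 fold change, with a median of -0.05 and none past the test. Oligodendrocyte and endothelial markers were highest in the 2 libraries with the lowest sums: the 8 endothelial markers gave 107, 356 and 151 CPM in the NTg and 190, 368 and 107 CPM in the double mutant libraries, in the same order. The 8 ependymal markers summed to 20.8 to 41.0 CPM in NTg libraries and to 33.3, 148 and 56.6 CPM in double mutant replicates 8, 10 and 12. All 7 tested ependymal markers had a positive log2 fold change, with a median of 1.46, and none passed the test after adjustment. Of these 7 markers 5 had an edgeR unadjusted p under 0.05, against 2.28% of all tested genes. Groups without overlap were found for 2 of them, against 6.84% of all tested genes. Neutrophils and monocytes also express Spi1, Cebpa and Runx1; all 12 neutrophil and all 10 monocyte markers had a positive log2 fold change, with medians of 1.21 and 1.01 and none past the test, and their sums overlapped between genotypes. The part of these cells in the levels of the 9 factors was not tested.

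Set against the marker sum, the order of steadiness changed. Irf8 amounted to 19.0, 18.4 and 20.1 CPM per 1000 CPM of microglial markers in NTg replicates 7, 9 and 11 and to 20.4, 18.6 and 19.9 in double mutant replicates 8, 10 and 12, a coefficient of variation of 4.41%. For Sall1 the ratios were 28.8, 30.7 and 31.1 in NTg and 29.5, 31.9 and 33 in double mutants, 4.94%. Relative to the markers, both factors varied less between libraries than any of the other 7. Cebpa fell from 21.4% to 11.1% on this scale and Sall3 from 9.75% to 8.04%, whereas Spi1 went to 14.6%, Mef2a to 16.2%, Bhlhe41 to 20.4% and Runx1 to 22%. On this scale too no factor passed the test: with libraries scaled to the marker sum, the log2 fold changes ran from -0.10 for Sall3 to 0.13 for Cebpa and every edgeR adjusted p was at least 0.9998. This scaling moved the median of all genes to 0.07 and left 32.9% of all genes, and 5 of the 9 factors, with a negative value.

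**Figure D4:**
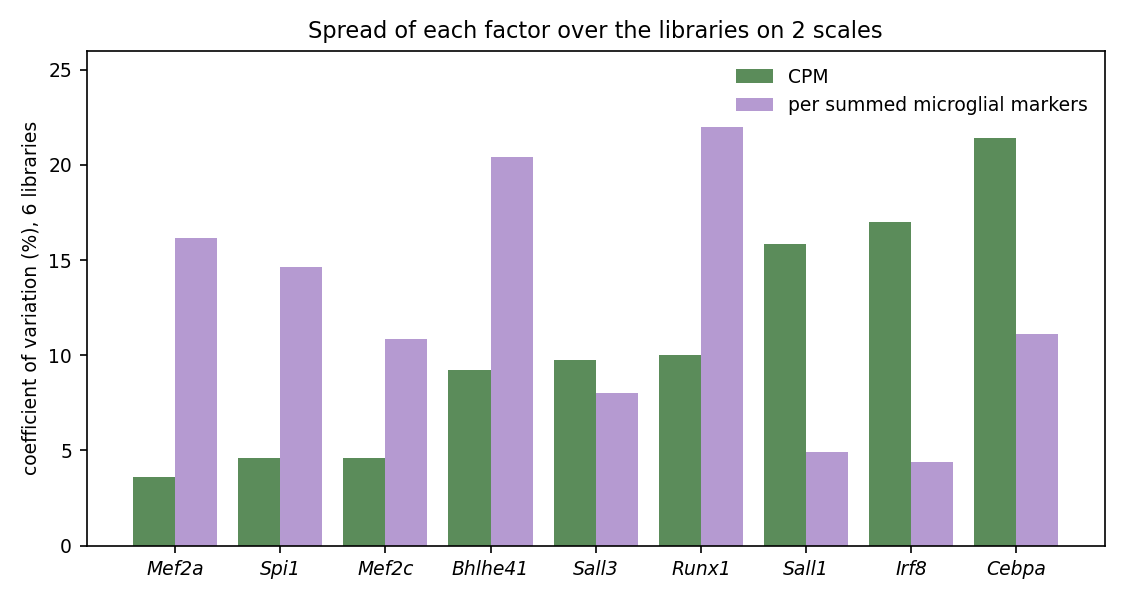
Coefficient of variation of each factor over the 6 libraries in percent (vertical axis, from 0), as CPM and as CPM per summed level of the 14 microglial markers. Mef2a, Spi1, Mef2c, Bhlhe41 and Runx1 vary less as CPM, and Sall1, Irf8 and Cebpa vary less per marker sum, down to 4.41% for Irf8.

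Per kilobase of exon, Cebpa was the highest of the 9, with a mean of 205 RPKM over the 6 libraries and a range of 147 to 263 RPKM. Spi1 followed at 103 RPKM (97.8 to 109) and Sall1 at 89.4 RPKM (74.1 to 111), and these 2 overlapped. Mef2a stood at 50.0 RPKM (47.9 to 52.2), Irf8 at 42.1 RPKM (32.3 to 49.9) and Runx1 at 31.3 RPKM (27.9 to 35.0); Irf8 overlapped with both of its neighbours. Mef2c at 25.2 RPKM (22.9 to 26.1) and Sall3 at 24.1 RPKM (19.9 to 26.5) overlapped as well, and Bhlhe41 was the lowest at 16.9 RPKM (15.4 to 19.8), just below the range of Sall3. All 9 belonged to the upper part of the transcriptome: Bhlhe41 exceeded 84.1% of the tested genes in RPKM and Cebpa 98.7%. The annotated exons differ widely in length, from 2636 bases for Cebpa to 15715 for Mef2c, and cover all isoforms, so as CPM, without length, Mef2a came first and Spi1 seventh.

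Within their families the 9 factors were not always the most abundant relative. Spi1 made up 99.7% ± 0.14 of the summed RPKM of Spi1, Spib and Spic in NTg libraries (SD, n = 3) and Runx1 made up 96.4% ± 0.42 of that of the 3 RUNX genes. In the spalt-like family Sall1 held 76.1% ± 2.03 and Sall3 21.9% ± 1.88 in NTg, and 77.8% ± 1.79 and 20.04% ± 1.80 in double mutants, while Sall2 held 2.004% in NTg and Sall4 had 0 to 0.16 CPM. Mef2a and Mef2c shared their family with Mef2d: their parts in NTg were 44.2% for Mef2a, 32.3% for Mef2d and 22.4% for Mef2c. The ratio of Mef2a to Mef2c in RPKM was 1.98 ± 0.08 in NTg and 1.995 ± 0.17 in double mutants. Among the C/EBP genes Cebpb, a factor of inflammatory responses, held 58.6% and Cebpa 36.0%. Of the IRF genes Irf5 held 54.5%, Irf1 16.2% and Irf8 14.8% in NTg.

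Bhlhe41 and its close relative Bhlhe40 divided their family most unevenly between libraries. Bhlhe40 stood at 32.5, 55.6 and 29.2 CPM in replicates 7, 9 and 11 (NTg) and at 48.1, 88.1 and 34.3 CPM in replicates 8, 10 and 12 (double mutant). It was highest in NTg replicate 9 and double mutant replicate 10, where the microglial marker sum was lowest. Its log2 fold change was 0.54 (SE 0.45; edgeR unadjusted p = 0.280; exact permutation p = 0.4), and its share of the pair was 31.9% ± 5.07 in NTg and 40.6% ± 10.8 in double mutants, up to 52.5% in replicate 10.

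**Figure D5:**
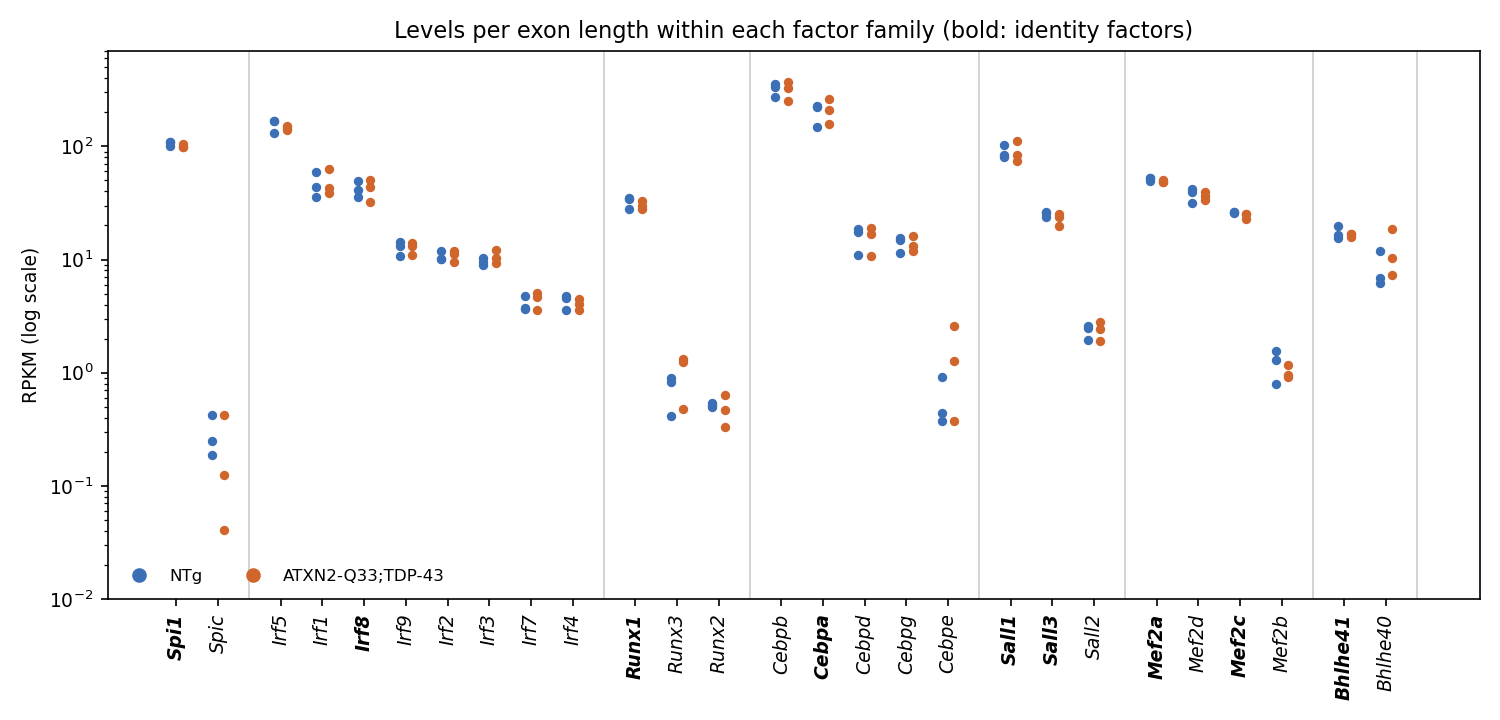
Level of each tested member of the 7 factor families in RPKM (vertical axis, log scale); points are libraries, NTg left and double mutant right, and the 9 identity factors are in bold. Spi1, Runx1 and Sall1 exceed their relatives, and Cebpb and Irf5 lie above Cebpa and Irf8.

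Another 18 members of these families were tested, of which 9 had a positive and 9 a negative log2 fold change, with a median of 0.00 and none past the test. Spib and Sall4 were too low to be tested. Irf5, an activator of inflammatory genes, had -0.09 (SE 0.11), Irf1 0.06 (SE 0.24), Cebpb -0.01 (SE 0.15) and Mef2d -0.05 (SE 0.12). Cebpg, Irf9 and Mef2b share exons with another gene on their strand, so their counts are uncertain; none of the 9 factors does.

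No partner or regulator of these factors passed the test. Of 17 cofactors, which include CBFβ, the partner of RUNX1, the NuRD complex, which SALL proteins recruit, and the deacetylases that bind MEF2, 6 had a positive and 11 a negative log2 fold change, with a median of -0.01. The members with the smallest p-values were Mta3, Mta1 and Mta2. Their log2 fold changes were 0.20 (SE 0.12), -0.19 (SE 0.12) and -0.14 (SE 0.10), so their signs differed. All are NuRD subunits, as are most of the listed cofactors, so this order does not single out the complex. Mta3 was higher in every double mutant library, at 24.0 to 30.1 CPM against 21.7 to 23.6 CPM in NTg. Of the 17 cofactors 2 had groups without overlap, against 6.84% of all genes. The other was Gatad2b, at 105.6 to 109.9 CPM in double mutants and 101.9 to 105.3 CPM in NTg. Its groups thus nearly touched.

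Signals upstream of the factors are the growth factor receptor CSF1R and the TGFβ pathway, which microglia need in mice. Of the 9 listed genes 8 were tested, 2 with a positive and 6 with a negative value and a median of -0.03; Csf1 had -0.15 (SE 0.11), Tgfb1 -0.06 (SE 0.09) and Smad2 0.06 (SE 0.09). Il34 was too low to be tested. Downstream, 12 genes that need PU.1 in myeloid cells had 3 positive and 9 negative values and a median of -0.03. Cybb, a subunit of the phagocyte oxidase, had 0.27 (SE 0.25), Csf3r 0.08 (SE 0.09) and Csf2ra -0.09 (SE 0.11). Of these 12 genes 2 were negative without double mutant replicate 10 and 4 without NTg replicate 11, in place of 9. Without double mutant replicate 10, 2 of the 8 upstream genes were negative in place of 6. None of the upstream or downstream genes passed the test.

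Other macrophage regulators, 20 genes, had 9 positive and 11 negative values and a median of -0.07. Prdm1, which encodes the repressor BLIMP-1, stood at 175, 188 and 127 CPM in replicates 7, 9 and 11 (NTg) and at 136, 146 and 122 CPM in replicates 8, 10 and 12 (double mutant), a log2 fold change of -0.27 with an SE of 0.15 (edgeR unadjusted p = 0.0936; exact permutation p = 0.3). The groups overlapped through NTg replicate 11. Tfe3, a factor of lysosome genes, had -0.14 (SE 0.08) with every double mutant library below every NTg library; it was 1 of the 20 genes without overlap, near the 6.84% of all genes. Hif1a, a factor of the response to low oxygen, had -0.13 (SE 0.08). Factors of macrophages in other tissues reached at most 5.42 CPM in any library: Spic, known from splenic and hepatic macrophages, had 0.16 to 1.63 CPM, and Gata6, known from peritoneal macrophages, was too low to be tested. Of the 5 tested genes of this list 2 had a positive and 3 a negative value, with a median of -0.30, -0.30 (SE 0.31) for Id3, -0.56 (SE 0.78) for Spic and 0.25 (SE 0.44) for Nr1h3.

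BHLHE41 belongs to the circadian clock as a repressor, and 15 of 16 listed clock genes were tested, with 6 positive and 9 negative values and a median of -0.10. Nfil3, a repressor of clock output, stood at 22.7, 26.8 and 24.3 CPM in replicates 7, 9 and 11 (NTg) and at 28.8, 41.9 and 30.3 CPM in replicates 8, 10 and 12 (double mutant). Every double mutant library was above every NTg library, as for 3.26% of all tested genes, with a log2 fold change of 0.45 with an SE of 0.16 (edgeR unadjusted p = 0.0176; exact permutation p = 0.1). It was the 1 clock gene of 15 at an unadjusted p under 0.05, against 2.28% of all genes, and it did not pass after adjustment. Arntl, the activator BMAL1, was also higher without overlap, with 0.20 (SE 0.12), and Per3 lower without overlap, with -0.18 (SE 0.10), so that 3 of the 15 clock genes had groups without overlap against 6.84% of all genes. The time of day of collection was not given in the sources used here.

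The gene whose pattern over the 6 libraries was closest to a factor was found among 7854 protein-coding genes with a mean of at least 10 CPM, by the root mean square difference of log2 CPM after each gene was centred on its mean. The closest were Dhx15 to Spi1 (0.02), Dennd4b to Runx1 (0.02), Psmb10 to Cebpa (0.05), Zfp217 to Sall1 (0.02), Man1b1 to Sall3 (0.03), Zkscan1 to Mef2a (0.01), Pabpc1 to Mef2c (0.01) and Cdip1 to Bhlhe41 (0.02). Among the 9 factors themselves Irf8 and Sall1 were each other's nearest at 0.09, and so were Spi1 and Mef2a at 0.04. The distance of a factor from a flat line at its own mean was 0.23 for Irf8 and 0.20 for Sall1, but 0.06 for Spi1 and 0.05 for Mef2a, so the last pair was hardly nearer to each other than to no change at all. For Irf8, 2.32% of the candidate genes were nearer than Sall1, so the likeness of these factors is shared with many other genes.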

How the data were processed

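RNA-seq libraries of spinal cord microglia were analysed, 3 per genotype. The values are unnormalised counts of fragments, which the authors deposited after featureCounts 1.6.1 (strand setting 2, GENCODE vM25, per the file headers); the deposited exon length per gene gave RPKM. Trimming with Trim Galore 0.4.1 and alignment to mm10 with TopHat2 are named in the submitters' processing notes. A further 6 columns of other samples were not used. Symbols matched 55141 of 55401 genes. A chi-square comparison of libraries within a group gave 12.1 to 36.3 per degree of freedom, so each counted as 1 replicate.

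Genes passing filterByExpr (minimum count 10) were fitted with edgeR 4.0.16 in R 4.3.3 (TMM, robust quasi-likelihood, no covariate) and p-values adjusted by Benjamini-Hochberg, threshold 0.05; edgeR's SE and 95% intervals follow from the F statistic. The common biological coefficient of variation was 0.261. Permutations ran on log2 of CPM plus 0.5. Alternatives included DESeq2 1.42.0 and voom from limma 3.58.1. The steps were tested on simulated data.

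The members, gene lists, alternatives and tests were chosen with earlier results of these data known. Named genes are the 9 factors, members of their families and the gene nearest to each factor. For each other list they are the 3 members with the smallest p. Per3, Arntl, Tfe3, Mta3, Atxn2 and, named after its values were seen, Gatad2b are also remarked on for groups without overlap. Library overlap, neighbouring numbers and the TATA motif were looked at after values had been seen. A few named genes are not reported here. Protein identities, planned at first, were not computed here, and promoter windows of Spi1, Runx1, Bhlhe41 and Sall3 are not shown.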

Additional observations from a re-analysis of the deposited data

How the results depend on the processing

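None of the 9 factors passed edgeR's test, DESeq2 or limma voom under any alternative. Over all genes, the counts called higher and lower were 5 and 2 with DESeq2, 5 and 1 without the filter on low counts, 51 and 20 with neighbouring sample numbers as a block, and 1 and 0 without NTg replicate 9 and double mutant replicate 10 together; leaving out 1 library gave 0 to 2 higher (2 without double mutant replicate 12) and 0 lower. The labels give the groups no shared replicate numbers, so this block pairs numbers that only neighbour each other. Scaling to the microglial marker sum turned Irf8 to 0.036 and Bhlhe41 to 3.9e-05. With the combined alignments that column names mark for NTg replicates 7 and 9 as a covariate, which leaves NTg to replicate 11, Runx1 became 0.12, Cebpa -0.11, Sall1 -0.19 and Bhlhe41 0.0053, and Irf8 moved to -0.24. Without NTg replicate 9 and double mutant replicate 10, Irf8 was 0.05 and Bhlhe41 0.04. Leaving out 1 library at a time gave -0.15 to 0.15 for Irf8, -0.10 to 0.26 for Cebpa, -0.16 to 0.14 for Sall1, -0.13 to 0.051 for Bhlhe41, -0.11 to -0.07 for Spi1, -0.19 to -0.03 for Runx1, -0.22 to -0.06 for Sall3, -0.09 to -0.05 for Mef2a and -0.10 to -0.03 for Mef2c. The cause of these turns was not tested. Between 6 and 9 of the 9 factors were negative with 1 library left out. With 3 pools a group, the depth and spread limit each factor to its own 95% interval, without the block from -0.27 to 0.10 for Spi1 and from -0.45 to 0.62 for Cebpa on the log2 scale.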
